A study of Mus musculus with 7 samples.

Results

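The expression of 34 genes of DNA repair was compared between T-cell leukemias of mice that carry 1 of 2 oncogenes. The genes span homologous recombination, the Fanconi anemia pathway, damage signalling, mismatch repair and end joining. They were chosen with earlier results of these data known. Of the 34, 33 were measured by a probe set with a single gene symbol, out of 18193 genes so measured. Xrcc2 was not analysed here. Where a gene had several probe sets, the one with the highest mean over all arrays stood for it. The ICN1 group comprised 3 arrays of bone marrow cells from terminally ill C57Bl/6 mice whose leukemia carries ICN1, an activated form of NOTCH1 that consists of its intracellular portion. The TEL-JAK2 group comprised 4 arrays of thymus cells from terminally ill C57Bl/6 mice whose leukemia carries the TEL-JAK2 fusion kinase. The labels call both leukemic cell suspensions and name no sorting step, no age and no promoter or vector for either oncogene, and no healthy tissue was part of the series. Genotype and tissue therefore change together in every comparison and cannot be told apart.

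Cells repair broken DNA by several routes. Homologous recombination copies an intact sister chromatid, so it works in S and G2 phase: the broken end is cut back to single-stranded DNA, which then pairs with the intact copy. The Fanconi pathway detects crosslinks between strands at stalled replication forks and hands the break to homologous recombination. End joining ligates broken ends directly at any stage of the cell cycle, and in developing lymphocytes it also seals the breaks made during V(D)J recombination. Mismatch repair removes errors left by the replicative polymerases, and the kinases ATM and ATR signal damage to the checkpoint kinases CHK2 and CHK1. Many genes of the first pair of pathways are transcribed mainly in cycling cells.

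Values are log2 expression after RMA, which subtracts background, brings the arrays to a common distribution and combines the probes of a set into 1 value. Differences are ICN1 minus TEL-JAK2 on that scale with the standard error (SE) of the limma fit, for n = 3 and n = 4 arrays, and calls were made where the p, adjusted by Benjamini-Hochberg across the 18193 genes, was below 0.05. Across the 45037 probe sets, arrays correlated at 0.973 to 0.982 within ICN1 and at 0.975 to 0.989 within TEL-JAK2 (Pearson's r). ICN1 replicates 1 and 2 held both Xist (11.51 and 11.78) and the Y-linked transcript Eif2s3y (8.93 and 9.41), whereas ICN1 replicate 3 held Xist (12.09) with Eif2s3y near background (3.25). Replicates 1 and 2 thus held transcripts of both sexes, and whether each mixes cells of several animals was not tested. Each TEL-JAK2 array held 1 of the pair. The 10 measured T-lineage markers had a mean level of 11.40 to 11.55 in ICN1 arrays and of about 12 in each TEL-JAK2 array.

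Most of the DNA repair genes were expressed at higher levels in ICN1 leukemia. Of the 33 genes, 23 rose, 1 fell and 9 were not called. Over all genes tested, 24.1% were called, 12.2% higher and 11.9% lower in ICN1. Because the 33 genes were chosen with earlier results of these data known, their share was not tested against these. The median difference of the 33 genes was 0.95, against -0.04 for all genes tested. The 2 groups did not overlap in 25 of the 33 genes, 23 of them higher and 2 lower in ICN1, beside 34.3% of all genes tested. Among the called genes, 16 differed at least 2-fold and 11 at least 3-fold. The count by pathway was 9 of 10 for homologous recombination, 7 of 9 for the Fanconi pathway, 4 of 6 for damage signalling, 2 of 5 for end joining and 0 of 2 for mismatch repair. With both ICN1 replicates 1 and 2 left out, 14 of the 33 genes rose and 0 fell, with a median difference again of 0.95. That fit has a single ICN1 array, which is assumed to vary like the TEL-JAK2 arrays.

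**Figure D1:**
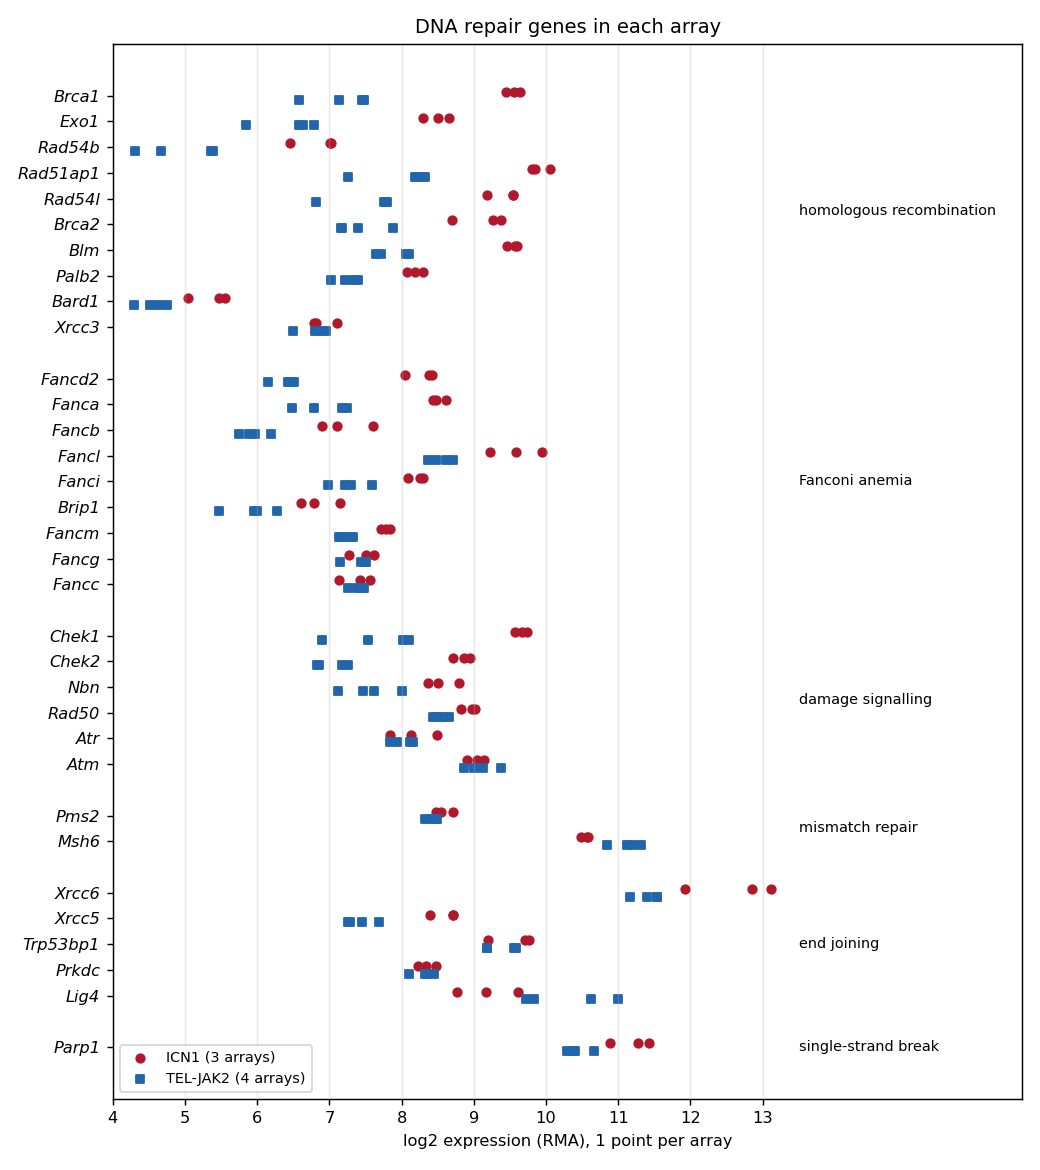
Log2 expression (RMA) of the 33 measured DNA repair genes, 1 point per array, grouped by pathway; red circles are the 3 ICN1 arrays and blue squares the 4 TEL-JAK2 arrays. The colours are separate in 25 genes and mixed in the remainder, such as Atm, Atr, Fancc and Prkdc.

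Homologous recombination held the largest difference among the 33 genes. Brca1, a ubiquitin ligase that promotes the cutting back of broken ends and recruits the recombination machinery, read 9.56, 9.45 and 9.64 in the ICN1 arrays. It read 7.45, 7.13, 6.58 and 7.48 in the TEL-JAK2 arrays. Every ICN1 array thus lay above every TEL-JAK2 array, and the gene was 5.24-fold higher in ICN1 (2.39 ± 0.22, limma adjusted p = 0.000483). Its 3 further probe sets were called higher as well (0.58 to 2.10). Brca2, a mediator of homologous recombination, read 9.37, 9.26 and 8.70 in ICN1 and 7.40, 7.17, 7.16 and 7.88 in TEL-JAK2. It was 3.26-fold higher (1.70 ± 0.23, adjusted p = 0.00231 by limma), with ICN1 replicate 3 the lowest of its group. Palb2, which bridges BRCA1 and BRCA2, rose less (0.95 ± 0.12), as did Bard1, the obligate partner of BRCA1 (0.81 ± 0.16). Bard1 averaged 5.35 in ICN1 and 4.55 in TEL-JAK2, below the median gene (6.34), where RMA compresses folds.

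Of 4 genes of strand invasion and exchange, 3 rose. Rad51ap1, which stimulates strand invasion, read 9.85, 10.05 and 9.81 in ICN1 arrays, against 8.19, 8.26, 7.25 and 8.33 in TEL-JAK2 arrays (1.90 ± 0.27, 3.72-fold). Rad54l, a DNA translocase that promotes strand exchange, read 9.54, 9.54 and 9.18 in ICN1, against 7.75, 7.80, 6.81 and 7.78 in TEL-JAK2 (1.88 ± 0.26). In both genes TEL-JAK2 replicate 3 lay well below the other arrays of its group, and the groups did not overlap. Rad54b, a relative of Rad54l, differed by 1.90 ± 0.30 and averaged 6.83 in ICN1 and 4.93 in TEL-JAK2. Xrcc3, which acts late in recombination, was not called (0.12 ± 0.14, adjusted p = 0.608 by limma), and its groups overlapped. A dimmer probe set of Xrcc3, which may cross-hybridize, was called higher (1.10 ± 0.25).

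Exo1 and Blm were called higher too. Exo1, an exonuclease that cuts back broken ends and also serves mismatch repair, read 8.66, 8.30 and 8.51 in ICN1 and 6.79, 6.58, 5.85 and 6.64 in TEL-JAK2. It was 4.08-fold higher in ICN1 (2.03 ± 0.23, adjusted p = 0.00112 by limma), again with TEL-JAK2 replicate 3 the lowest. Blm, a helicase that dissolves the joint molecules left by recombination, read 9.57, 9.60 and 9.46 in ICN1, against 8.06, 7.65, 7.71 and 8.10 in TEL-JAK2 (1.67 ± 0.14). The 9 calls of this pathway were kept in each of the 7 fits without 1 array. With both ICN1 replicates 1 and 2 left out, 6 of the 9 were called, and Brca2, Rad51ap1 and Rad54l were not (adjusted p = 0.0505, 0.0561 and 0.0613 by limma).

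In the Fanconi pathway, 7 of 9 genes rose and 2 were not called, with a median difference of 0.94. Fancd2 and Fanci encode the pair of proteins that is ubiquitinated at stalled forks, the activating step of the pathway. Fancd2 read 8.38, 8.42 and 8.05 in ICN1 arrays and 6.46, 6.43, 6.15 and 6.51 in TEL-JAK2 arrays. It was 3.72-fold higher in ICN1 (1.89 ± 0.14, adjusted p = 0.000161 by limma), the smallest adjusted p of the 33 genes, and its 3 further probe sets were called higher. Fanci differed by 0.94 ± 0.15. Fancl, the ubiquitin ligase of this step, read 9.59, 9.94 and 9.23 in ICN1, against 8.47, 8.71, 8.37 and 8.61 in TEL-JAK2 (1.05 ± 0.18). All 3 genes of this step were called higher in ICN1, although a dimmer probe set of Fancl was not called (-0.069 ± 0.105).

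Subunits of the Fanconi core complex did not all move. Fanca read 8.48, 8.44 and 8.62 in ICN1, against 6.79, 7.17, 6.48 and 7.24 in TEL-JAK2 (1.59 ± 0.19, 3.02-fold). Fancb, an X-linked subunit, read 7.10, 7.60 and 6.89 in ICN1, against 6.19, 5.75, 5.97 and 5.88 in TEL-JAK2 (1.25 ± 0.19). Both groups were separate in these genes. Fancc (-0.02 ± 0.12, adjusted p = 0.925 by limma) and Fancg (0.07 ± 0.13, adjusted p = 0.751) were not called, and their arrays were intermixed. Fancc lay between 7.13 and 7.56 in ICN1 and between 7.26 and 7.48 in TEL-JAK2. A dimmer probe set of Fancc was called higher (0.57 ± 0.12) and the remaining one was not called (-0.20 ± 0.09). Fancm, a translocase that brings the core complex to DNA, rose by 0.55 ± 0.09, but not with the mean of its 3 probe sets (0.22, adjusted p = 0.228 by limma). Brip1, a helicase that binds BRCA1, differed by 0.92 ± 0.21 and was not called once ICN1 replicate 3 was left out (0.78, adjusted p = 0.0533 by limma). Its mean was 6.85 in ICN1, above the median gene (6.34), and 5.93 in TEL-JAK2, below it. With both ICN1 replicates 1 and 2 left out, 3 of the 9 Fanconi genes were called, all higher.

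**Figure D2:**
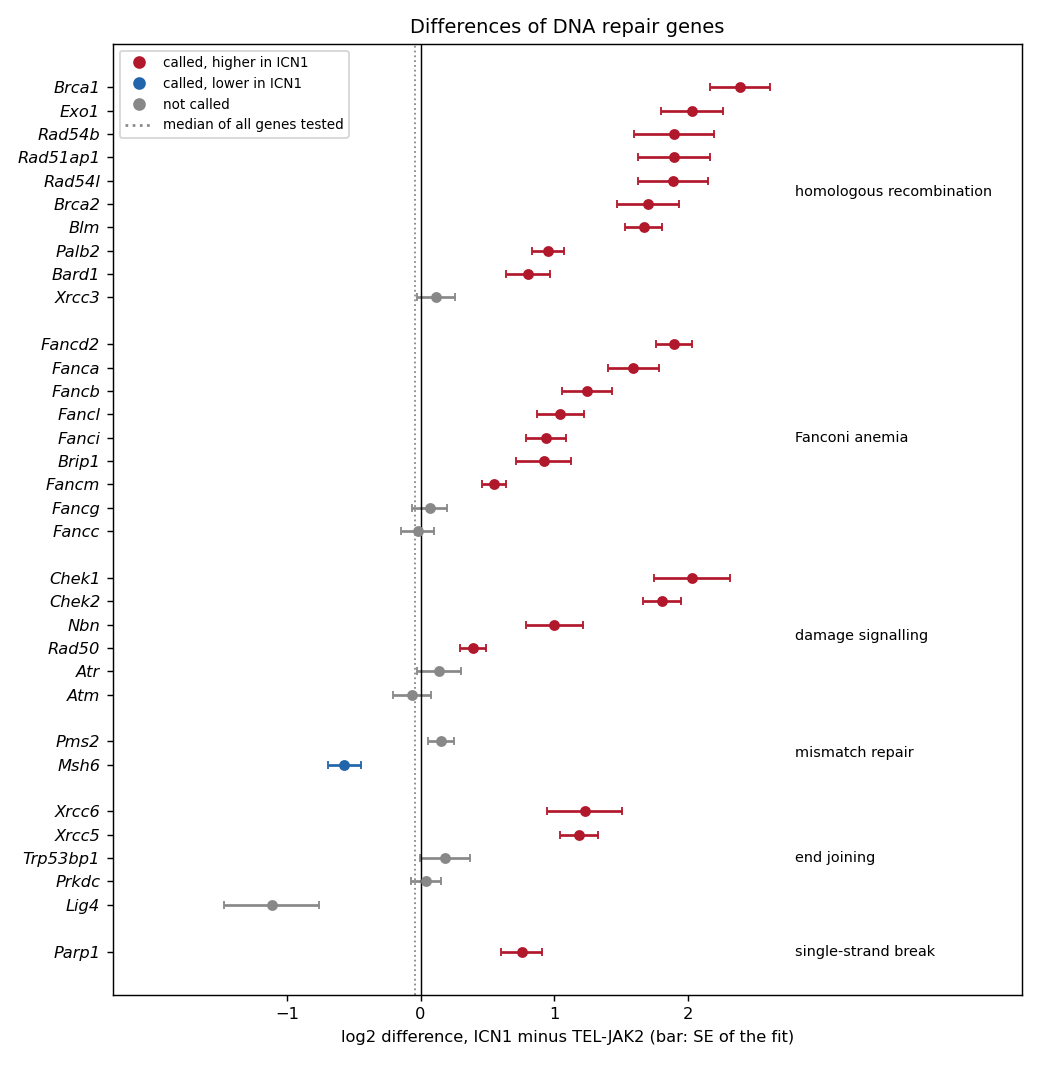
Log2 difference (ICN1 minus TEL-JAK2) of the 33 DNA repair genes with the SE of the fit, grouped by pathway; red is called higher in ICN1, blue called lower and grey not called. Differences run from -1.11 for Lig4 to 2.39 for Brca1, and the dotted line marks the median of all genes tested, -0.04.

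Among the genes of damage signalling, the checkpoint kinases rose and the kinases that activate them did not pass the test. Chek1, the kinase downstream of ATR that restrains cell cycle progression, read 9.57, 9.67 and 9.74 in ICN1 and 8.02, 7.53, 6.89 and 8.10 in TEL-JAK2. It was 4.07-fold higher in ICN1 (2.03 ± 0.28, adjusted p = 0.00259 by limma). That probe set may cross-hybridize, and another that does not carry this mark gave 2.02 ± 0.36. Dimmer probe sets of Chek1 gave 1.69 ± 0.23, 0.58 ± 0.13 and -0.05 ± 0.10, and the last of these was not called. Chek2, the kinase downstream of ATM, read 8.71, 8.86 and 8.94 in ICN1, against 7.25, 6.83, 6.86 and 7.18 in TEL-JAK2 (1.81 ± 0.14, 3.50-fold). Atr read 8.13, 7.84 and 8.49 in ICN1, against 7.94, 8.16, 7.84 and 8.11 in TEL-JAK2 (0.14 ± 0.17, adjusted p = 0.608). Atm read 9.14, 9.05 and 8.90 in ICN1, against 9.0, 9.13, 8.86 and 9.38 in TEL-JAK2 (-0.06 ± 0.14, adjusted p = 0.794). The arrays of the 2 groups were intermixed for both Atr and Atm, and none of their 3 further probe sets was called. Whether the differences of Chek1 and Chek2 exceed those of Atr and Atm was not tested.

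Nbn and Rad50 encode subunits of the complex that first binds broken ends. Nbn read 8.79, 8.37 and 8.5 in ICN1, against 8.01, 7.62, 7.12 and 7.46 in TEL-JAK2 (1.0 ± 0.21, 2.00-fold), and was not called with ICN1 replicate 1 left out (0.88, adjusted p = 0.0513 by limma). Rad50 rose by 0.39 ± 0.10, and its groups were separate but close. In ICN1 the call rested on replicates 1 and 3 (adjusted p = 0.0773 and 0.0705 when left out) and in TEL-JAK2 on replicates 2 and 3 (0.0645 and 0.0634 by limma), and the mean of its probe sets gave 0.11 (adjusted p = 0.383). The third subunit, Mre11a, was not called (-0.01, adjusted p = 0.971). Damage signalling accordingly had 2 genes called without ICN1 replicate 1, against 4 in the full set, and 2 with both ICN1 replicates 1 and 2 left out.

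Mismatch repair did not share the rise. Msh6, which recognizes base mismatches, read 10.58, 10.48 and 10.57 in ICN1 and 11.31, 10.84, 11.19 and 11.12 in TEL-JAK2. It was the single gene of the 33 that fell in ICN1 (-0.57 ± 0.13, 1.48-fold, adjusted p = 0.0161 by limma). The groups did not overlap, but leaving out ICN1 replicate 2 ended the call (-0.54, adjusted p = 0.0543 by limma). With each array centred on the mean of 4 CD3 genes, the difference came to 0.052 (adjusted p = 0.800 by limma). That centring raises the difference of every gene by the same amount. Pms2, which cuts the strand to be corrected, was not called (0.15 ± 0.10, adjusted p = 0.306). It lay between 8.48 and 8.71 in ICN1 and between 8.33 and 8.49 in TEL-JAK2. Of 5 other mismatch repair and related MutS and MutL genes measured, 0 were called by limma, with 1 at an unadjusted p under 0.05. They ranged from Mlh3 (-0.39) to Msh3 (0.68, adjusted p = 0.0656 by limma).

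Of 5 end-joining genes, 2 rose and 3 were not called. Xrcc5 and Xrcc6 encode the Ku80 and Ku70 subunits of the ring that caps broken ends, and both rose. Xrcc5 read 8.39, 8.71 and 8.71 in ICN1, against 7.45, 7.29, 7.25 and 7.68 in TEL-JAK2 (1.19 ± 0.14, 2.28-fold, adjusted p = 0.00141 by limma). Xrcc6 read 11.92, 13.12 and 12.86 in ICN1, against 11.54, 11.16, 11.40 and 11.54 in TEL-JAK2 (1.23 ± 0.28). Its ICN1 replicate 1 lay close to the TEL-JAK2 arrays, and leaving out ICN1 replicate 2 or 3 ended the call (0.98 and 1.11, adjusted p = 0.0512 and 0.0567 by limma). Prkdc, the DNA-dependent kinase that Ku recruits, was not called (0.04 ± 0.12, adjusted p = 0.839). It lay between 8.22 and 8.48 in ICN1 and between 8.10 and 8.45 in TEL-JAK2.

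Lig4, the ligase that closes the break, read 9.17, 8.76 and 9.61 in ICN1 and 10.63, 9.83, 11 and 9.72 in TEL-JAK2. The groups did not overlap and the difference was -1.11 ± 0.36, but it did not pass the test (adjusted p = 0.0608 by limma). TEL-JAK2 replicates 1 and 3 lay well above replicates 2 and 4. The gene was called lower without TEL-JAK2 replicate 4 (-1.30, adjusted p = 0.0401) and when dim genes were dropped before the adjustment (0.0386 by limma). Trp53bp1, which protects broken ends from being cut back, was not called (0.18 ± 0.18, adjusted p = 0.530), although 2 of its 5 dimmer probe sets were called higher (0.77 and 0.85). Parp1, a sensor of single-strand breaks, read 11.27, 10.89 and 11.42 in ICN1, against 10.66, 10.29, 10.40 and 10.38 in TEL-JAK2 (0.76 ± 0.15, adjusted p = 0.0114 by limma). Its groups did not overlap, and 2 of its 3 further probe sets were called higher.

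Further probe sets existed for 21 of the 33 genes. Of the 29 belonging to called genes, 21 were called in the same direction, 8 were not called and 0 were called in the opposite direction. The 8 belonged to Chek1, Fancb, Fancl, Fancm, Parp1, Rad50 and Xrcc6. Of the 14 belonging to genes not called, 4 were called.

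Within the groups, the arrays were not equally high. TEL-JAK2 replicate 3 was the lowest of its group in 19 of the 33 genes and in 8 of the 10 homologous recombination genes. The mean level of the homologous recombination genes was 8.42, 8.26 and 8.31 in the ICN1 arrays, against 6.99, 6.75, 6.39 and 7.05 in the TEL-JAK2 arrays. A list of 27 measured genes of S phase and mitosis (such as the replicative helicase, nucleotide synthesis and mitotic kinases) had means of 11.19, 11.10 and 11.01 in ICN1 and 9.87, 9.53, 9.01 and 9.82 in TEL-JAK2. TEL-JAK2 replicate 3 was the lowest of its group in 24 of these 27 genes. The end-joining genes did not follow this order, with means of 9.51, 9.60 and 9.89 in ICN1 and 9.50, 9.11, 9.51 and 9.31 in TEL-JAK2. The ranges of the 2 groups touch at 9.51 for end joining and are far apart for homologous recombination. Without TEL-JAK2 replicate 3, 22 of the 33 repair genes were called higher, with Rad50 the one lost, and their median difference was 0.86.

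**Figure D3:**
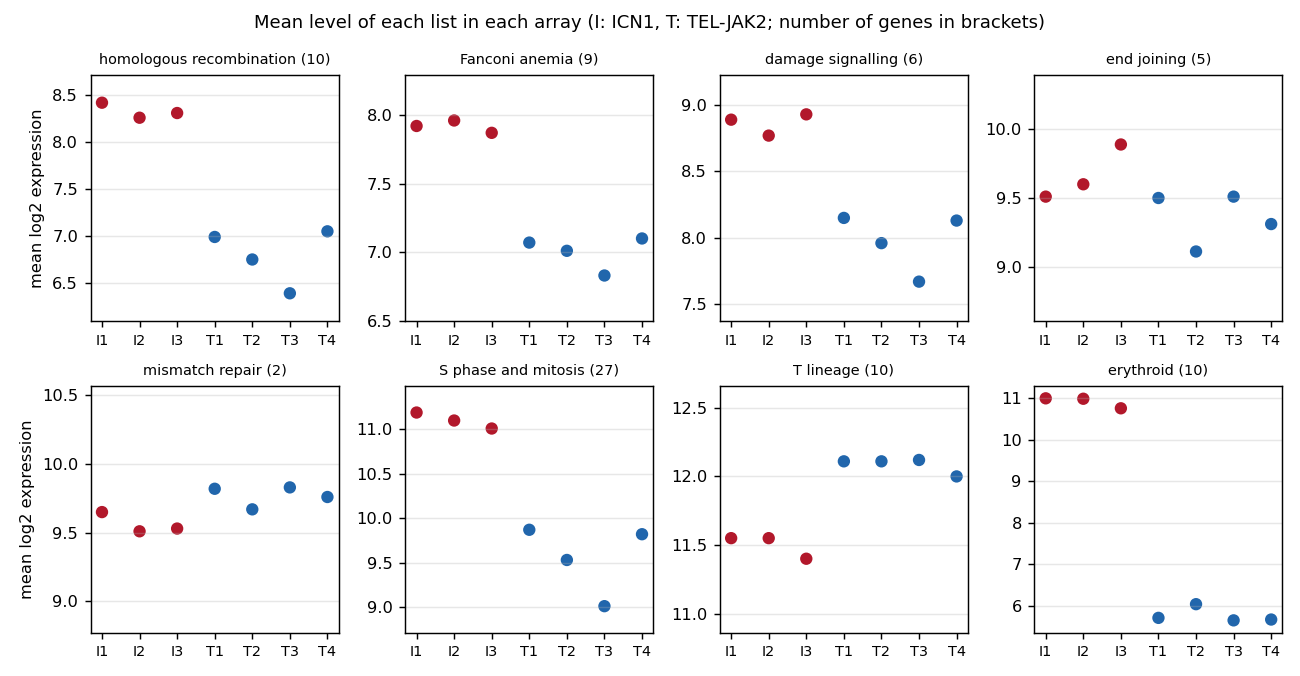
Mean log2 expression of groups of DNA repair genes and of comparison lists in each array, ICN1 arrays (I1 to I3, red) and TEL-JAK2 arrays (T1 to T4, blue), with a separate vertical scale in each panel. Homologous recombination and the S phase and mitosis list are lowest in T3 (6.39 and 9.01), and the erythroid list is at 10.76 to 11 in ICN1 and 5.65 to 6.04 in TEL-JAK2.

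All 27 measured genes of S phase and mitosis rose in ICN1, with a median difference of 1.68. Tk1, a thymidine kinase of S phase, differed by 2.58 ± 0.29 and Plk1, a mitotic kinase, by 1.61 ± 0.18. Among the repair genes described above, those of homologous recombination had a median of 1.79, the Fanconi genes 0.94, damage signalling 0.70, end joining 0.18 and mismatch repair -0.21. This order did not hold for further genes of these pathways. Their medians were 0.33 for homologous recombination, 0.32 for Fanconi, 0.77 for damage signalling, 0.14 for end joining and -0.10 for mismatch repair. The S phase and mitosis genes were higher in the same arrays as the homologous recombination, Fanconi and checkpoint kinase genes, and their part in those differences was not tested. With both ICN1 replicates 1 and 2 left out, 10 of the 27 were called higher.

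The suspensions also differed in markers of other cells. Of 10 measured erythroid genes, 8 were higher in ICN1 and 2 were not called, with mean levels of 10.76 to 11 in ICN1 and 5.65 to 6.04 in TEL-JAK2. Rhag, a red cell membrane protein, had a mean of 11.89 in ICN1 and 3.30 in TEL-JAK2. Not called were Gata1, which averaged 10.49 in ICN1 and 9.68 in TEL-JAK2 (adjusted p = 0.0637 by limma), and Hba-a1, whose probe set was near background in both (3.91 and 3.87). Granulocyte markers were higher for 5 of 11, monocyte and macrophage markers for 6 of 12, megakaryocyte markers for 4 of 6 and stromal and endothelial markers for 1 of 11. Thymic epithelial markers were lower for 3 of 10 and B-lineage markers for 2 of 10. Of all genes tested, 12.2% were called higher and 11.9% lower in ICN1. The stromal and endothelial share (9.09%) was thus below that of all genes, and the B-lineage share was 20%. Dendritic cell and MHC class II markers had 0 of 10 called by limma and 0 at an unadjusted p under 0.05. Except for the erythroid list, which had 8 called in each of the 7 fits without 1 array, these counts depended on single arrays. Without ICN1 replicate 1, 2 granulocyte, 2 macrophage and 2 megakaryocyte markers were higher. Without ICN1 replicate 2, 2 macrophage markers were higher. Without TEL-JAK2 replicate 1, 2 granulocyte, 3 macrophage and 1 megakaryocyte markers were higher. Without TEL-JAK2 replicate 2, 2 granulocyte and 2 megakaryocyte markers were higher, and without TEL-JAK2 replicate 3, 3 granulocyte and 4 macrophage markers were. Without TEL-JAK2 replicate 3, 3 dendritic cell and MHC class II markers were lower. Over these fits, 1 to 3 thymic epithelial and 0 to 2 B-lineage markers were lower, and 0 to 4 stromal and endothelial markers were higher. Of 10 T-lineage markers 7 were lower in ICN1, among them Bcl11b (-1.62 ± 0.15), and Cd5 was higher (1.77 ± 0.49), a call that 4 of the 7 fits without 1 array did not keep. In such suspensions, fewer cells of a type and less RNA per cell cannot be told apart, and the part of these other cells in the repair differences was not tested. With each array centred on the mean of 4 CD3 genes, which put the median of all genes at 0.58 in place of -0.04, 31 of the 33 repair genes were called higher. Their median was then 1.57. This centring raised the difference of every gene by the same amount, and it called 11410 of the 18193 genes tested higher. A change of sign under it is thus no separate result on a single gene.

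Other genes of the same pathways, measured on the same arrays, gave the following counts. Of 29 further homologous recombination genes, 9 rose, 1 fell and 19 were not called, with a median of 0.33. Rad51c, which also takes part in homologous recombination, differed by 1.12 ± 0.13 and Tonsl, which protects stalled forks, by 1.04 ± 0.13. The 1 gene lower was Mus81, a nuclease (-0.71 ± 0.18), and 0 to 3 were lower in the fits without 1 array. Of 15 further Fanconi genes, 8 rose and 1 fell, with a median of 0.32. Without ICN1 replicate 1, ICN1 replicate 2 or TEL-JAK2 replicate 1, 5 rose. Ube2t, the conjugating enzyme that works with FANCL, differed by 1.27 ± 0.19 and the ubiquitin ligase Rfwd3 by 1.15 ± 0.14. Faap20, a core complex partner, fell by 1.06 on the log2 scale. Of 19 further damage signalling genes, 13 rose and 0 fell, with a median of 0.77. The phosphatase Ppm1d (1.17 ± 0.11) and the adaptor Paxip1 (1.11 ± 0.12) had the smallest adjusted p among them.

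Of 13 further end-joining genes, 5 rose and 3 fell, with a median of 0.14. The 5 became 1 without ICN1 replicate 1 or 3, 2 without ICN1 replicate 2 or TEL-JAK2 replicate 4, 3 without any other array, and 0 with ICN1 replicates 1 and 2 both left out. The 3 lower were Paxx (-0.95 ± 0.14), the LIG4 partner Xrcc4 (-0.91 ± 0.20) and the shieldin subunit Mad2l2 (-0.89 ± 0.20). The 5 higher were Rif1 (0.74), Polq (0.56), Aplf (0.55), Tdp2 (0.51) and Tdp1 (0.47). Base excision repair had 7 of 16 genes higher and 1 lower, led by the glycosylase Neil3 (1.91 ± 0.26) and the replicative ligase Lig1 (1.55 ± 0.22), with the glycosylase Smug1 lower (-0.50 ± 0.10). Nucleotide excision repair had 3 of 17 genes higher and 5 lower, with a median of -0.03. The 5 lower were Gtf2h4 (-1.68 ± 0.35), the damage sensors Xpc (-1.51 ± 0.24), Ddb2 (-0.68 ± 0.17) and Cetn2 (-0.73 ± 0.13), and the nuclease Ercc5 (-1.31 ± 0.12). The 3 higher were Rad23b (0.61), Ddb1 (0.54) and Ercc8 (0.40). They became 1 without ICN1 replicate 1 or 3 or without TEL-JAK2 replicate 1, 2 or 3. Translesion synthesis had 2 of 10 genes higher, Rev1 (2.87 ± 0.28) and Rad18 (1.19 ± 0.32), and 2 lower, Hltf (-0.54) and Poli (-0.47). In the fits without 1 array, 1 to 2 were higher and 1 to 2 lower.

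Of the 31 called genes named from these further lists, 17 kept their call in every fit without 1 array. Mus81, Rif1, Polq, Aplf, Tdp1, Tdp2, Xrcc4, Mad2l2, Rad23b, Ddb1, Ddb2, Ercc8, Rad18 and Poli each lost it in 1 or more of these fits. Polq lost it in all 7, Aplf, Poli and Rad23b in 6 each, and Mus81, Ddb2 and Rad18 in 5 each. The call of Xrcc4 ended without ICN1 replicate 3 (adjusted p = 0.0517 by limma), and those of Rif1 and Mad2l2 without ICN1 replicate 1 (0.0558 and 0.0578). The calls of Mus81, Rif1 and Cetn2 were also lost without cross-hybridizing probe sets (adjusted p = 0.111, 0.101 and 0.187). CD3 centring raised the difference of every gene by the same amount. Of the 13 lower genes, Gtf2h4, Xpc, Ercc5 and Faap20 were still called lower with it, and Hltf, Poli and Smug1 came to lie above 0.

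**Figure D4:**
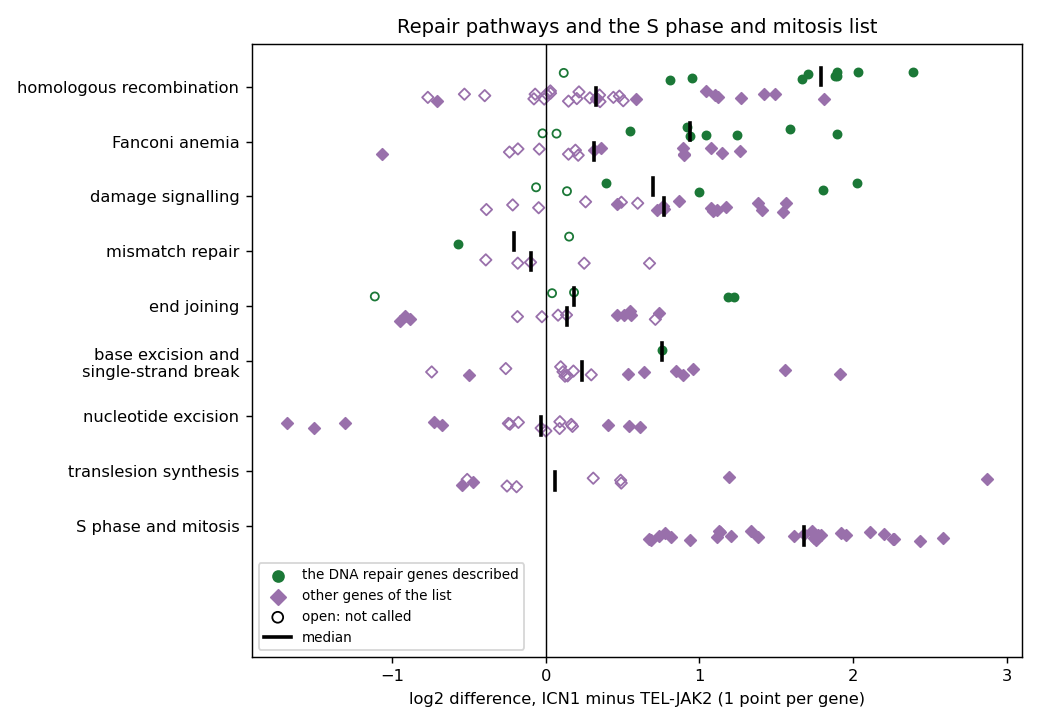
Log2 difference (ICN1 minus TEL-JAK2) of each measured gene of the repair pathways and of the S phase and mitosis list, with the DNA repair genes described above as green circles and other genes of each list as purple diamonds; filled symbols were called and black bars are medians. Every gene of the S phase and mitosis list lies above 0, and nucleotide excision repair has its median at -0.03.

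Promoter sequence, which played no part in choosing the genes, was available for 27 of the 33 in a RefSeq table of build GRCm38.p6, as windows of 250 bases before and 50 after the start. The words TTTCCCGC, TTTCGCGC, TTTGCCGC and TTTGGCGC, forms of the motif bound by the E2F factors that drive S phase transcription, were sought on both strands. At least 1 of them stood in 6 of the 27 genes (22.2%), against 3.81% of 14452 genes tested that have a window and 8 of 21 genes (38.1%) of the S phase and mitosis list. The share was 4 of 18 among genes called higher in ICN1 and 2 of 9 among the remaining ones, 22.2% in each. The CCAAT box (CCAAT) stood in 17 of 27 (63.0%), against 42.0% of genes tested, and the cell cycle homology region (TTTGAA) in 1 of 27, Bard1, against 15.7%. No 2 matches to different motifs shared a base in these windows. A match describes the letters and shows no binding.

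The stretches around the E2F word before the start are printed 5′ to 3′ on the strand of the gene, with the word in capitals. They show the word in 4 genes that rose and in 1, Fancg, that was not called. In the sixth gene, Msh6, the match lay after the start.
Brca2 (chr5:150522413-150522500, plus strand): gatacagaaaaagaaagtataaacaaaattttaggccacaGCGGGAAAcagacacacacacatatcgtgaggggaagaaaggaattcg
Bard1 (chr1:71103134-71103221, minus strand): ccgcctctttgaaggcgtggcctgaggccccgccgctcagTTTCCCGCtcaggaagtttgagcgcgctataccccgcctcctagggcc
Chek2 (chr5:110839791-110839878, plus strand): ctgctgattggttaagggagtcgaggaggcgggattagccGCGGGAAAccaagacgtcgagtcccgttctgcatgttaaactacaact
Xrcc6 (chr15:82016283-82016368, plus strand): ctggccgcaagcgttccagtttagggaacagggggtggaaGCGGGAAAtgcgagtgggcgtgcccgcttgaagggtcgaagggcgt
Fancg (chr4:43010306-43010393, minus strand): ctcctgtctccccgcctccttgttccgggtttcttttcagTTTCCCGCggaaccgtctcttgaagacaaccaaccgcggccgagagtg
All 5 hold the word TTTCCCGC or its reverse complement GCGGGAAA, while the differences of these genes ran from 0.07 for Fancg to 1.81 for Chek2.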

How the data were processed

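RNA of 7 leukemic cell suspensions was measured on Affymetrix mouse arrays. The authors deposited 1 table of log2 values for 45037 probe sets, made with RMA per the submitters' processing notes; neither version nor settings were stated. No further scaling was applied. RMA draws the arrays toward 1 distribution, so total RNA cannot be compared, and the number of arrays limits the precision. Of the probe sets, 34945 had 1 symbol in the platform annotation, 932 several and 9160 none; 34741 matched RefSeq genes of GRCm38.p6. Replicates were numbered in accession order, and their titles carry different numbers without stating what these stand for, so the p-values reflect how far these samples spread. No detection calls or scan batches were used.

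The test was that of limma 3.58.1 (lmFit and eBayes under R 4.3.3), two-sided, with Benjamini-Hochberg adjustment. The genes and lists were chosen with earlier results of these data known. Named were all members, up to 2 called genes per direction of other lists with the smallest adjusted p, and counts of 5 or fewer. The alternatives were the mean of probe sets, each probe set singly, cross-hybridizing probe sets left out, dim genes left out, 3 other scalings, trended robust moderation, 2 other thresholds and arrays left out. Tested on simulated data for 18193 genes, limma found 72 of 100 genes given a 1 log2 change, 94 of 100 given 2 log2 and, in the same run, 7 unchanged genes; it called 0 where nothing was changed. Figures used matplotlib 3.10.9.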

Additional observations from a re-analysis of the deposited data

Results flagged for a closer look

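Rad51ap1 in TEL-JAK2 replicate 3 read 7.25, against 8.19 to 8.33 in the other TEL-JAK2 arrays, and Rad54l in the same array read 6.81, against 7.75 to 7.80. Each array was set apart because its gap to the nearest other value took up most of the range of the group (Dixon's ratio 0.872 and 0.956, above the critical value for 4 arrays). Chance flags about 1 in 20 such groups, and 33 genes were looked at. Without this array the differences were 1.64 for both genes, and both remained called.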

How the results depend on the processing

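No paired analysis was possible because the replicate numbers only follow accession order. Repeating quantile normalization, median centring, leaving out cross-hybridizing probe sets and testing each probe set singly changed no call of the 33 genes. The count of 23 higher and 1 lower became 12 and 0 against a 1.5-fold difference, 14 and 0 with ICN1 replicates 1 and 2 both left out, 17 and 0 at an adjusted p under 0.01, 31 and 0 with CD3 centring, and 20 and 2 with dim genes left out, where 30 of the 33 genes were tested. Without 1 array it was 20 to 23 higher and 0 to 2 lower. By pathway, the Fanconi count of 7 higher became 2 against a 1.5-fold difference and 3 without ICN1 replicates 1 and 2. The damage signalling count of 4 became 2 under each of these and at an adjusted p under 0.01, and was 2 to 4 without 1 array. The end-joining count of 2 higher became 4 with CD3 centring and 1 at the 2 stricter thresholds (1 to 2 without 1 array), and its 0 lower became 1 without dim genes (0 to 1 without 1 array). For mismatch repair, the 1 lower gene became 0 with CD3 centring, at both stricter thresholds and without ICN1 replicates 1 and 2 (0 to 1 without 1 array), and 1 gene, Pms2, was called higher with CD3 centring. Parp1 was not called at either stricter threshold, which made its count 0. With CD3 centring, which raised the difference of every gene by the same amount, Fancc came to 0.60, Atm to 0.56 and Msh6 to 0.052. The split of all calls was then 93.5% higher (11410 higher, 787 lower), against 2215 higher and 2165 lower. Over all genes, 672 were higher and 515 lower against a 1.5-fold difference, 1204 and 987 at an adjusted p under 0.01, and 1557 and 1039 without ICN1 replicates 1 and 2. Of the 27 genes of S phase and mitosis, 14 were higher against a 1.5-fold difference. Of the 13 further end-joining genes, 0 were higher at an adjusted p under 0.01. Bard1, Rad54b and, only just, Brip1 lay below the median gene over all arrays, which limits what their values can show.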
